A study of Mus musculus with 26 samples.

Results

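The 8 genes described here are Ido1, Rasd2, Pcp4, Pcp4l1, Rasgrp2, Ptpn5, Arpp21 and Actn2, all of them associated with medium spiny neurons of both the D1 and the D2 class. They were taken by symbol from the count tables, and all 8 were listed in each of the 26 tables, among 31979 genes that could be joined across tables. Medium spiny neurons are the GABAergic projection neurons of the striatum, and nearly all of them carry either the D1 dopamine receptor (direct pathway) or the D2 dopamine receptor (indirect pathway). Many of the proteins typical of these neurons act on calcium, cyclic AMP or small G protein signalling at the synapses where cortical glutamate and midbrain dopamine meet.

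The libraries were made from dorsal striatum of adult Drd2-TRAP mice of line CP101. In translating ribosome affinity purification (TRAP), a ribosomal protein tagged with EGFP is made under the Drd2 promoter, and the tagged polysomes with their RNA are pulled down with anti-EGFP antibodies. Drd2 is also active in striatal cholinergic interneurons, so D2 neurons are the main but not the only cells the promoter can mark. All groups, inputs included, share this transgene and a background of FVB/N-Swiss Webster crossed to C57BL/6, and all mice had intravenous access to saline or cocaine in long sessions of self-administration. The purified libraries comprised 9 from cocaine mice of the nonescalating group after withdrawal, 5 from saline mice after withdrawal, 2 from cocaine mice of the escalating group, 4 from the nonescalating group without withdrawal and 3 from saline mice without withdrawal. There were also 3 input libraries of unpurified RNA, 1 each for saline withdrawal, nonescalating and saline. Library numbers in the titles form 2 sets: set B holds 5 nonescalating withdrawal libraries, 3 saline withdrawal libraries and the saline withdrawal input, and set A holds all the others. Each set A title but that of saline withdrawal set A replicate 2 calls its library a copy of a lower number. Set A was formed by those lower numbers. The labels do not say what a copy means. The labels do not say whether libraries came from separate mice, so a p-value here covers the spread among libraries, which may be technical. In input RNA, fewer cells of a type and less RNA per cell cannot be told apart.

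Reads counted in genes ran from 3279457 to 19122303 per purified library and from 5016587 to 11549493 per input. Uniquely aligned reads that fell in no annotated gene made up a share that ran from 21.2% to 70.7% in purified libraries and from 27.3% to 31.6% in inputs. Ambiguous reads, which match more than 1 gene and are counted for none, ran from 0.942% to 2.85% in purified libraries. In inputs they ran from 8.61% to 12.8%. The part of this difference in the fold changes against input was not tested. The purified libraries bore the marks of D2 neurons: 8 of 11 D2 markers were higher than in input and 7 of 10 D1 markers were lower, by edgeR's quasi-likelihood test with Benjamini-Hochberg adjustment. Drd2 had a log2 fold change of 2.79 ± 0.38 (SE; adjusted p = 0.00046), and Drd1 had one of -3.25 ± 0.32 (adjusted p = 2.21e-05). Markers of other cells were not all depleted, since 5 of 13 endothelial genes were called higher in purified libraries. By contrast, 9 of 10 myelin genes and 7 of 12 astrocyte genes were called lower. All 13 endothelial genes had positive log2 fold changes, and their median of 3.21 was above the 1.90 of the 11 D2 markers. The summed level of the 13 endothelial genes ran from 134 to 11512 CPM (read counts scaled to TMM-adjusted library size) over the purified libraries and from 135 to 911 CPM over the inputs, and the defining endothelial genes Cldn5, Flt1 and Cdh5 were at 0 in no library. The cholinergic genes Chat and Slc5a7 averaged 23.5 and 49.7 CPM in inputs. In the 12 purified libraries of conditions with an input they averaged 7.87 and 8.49 CPM. Of 7 interneuron genes tested, 4 were called lower in purified libraries and 0 higher. The part of these other cells in the results below was not tested.

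The promoters of 4 members are shown because 3 of them, Rasd2, Pcp4l1 and Ptpn5, had the most alike levels across libraries, while Rasgrp2 differed most from the rest. Each run is the window from 250 bases before to 50 bases after the annotated start, 5′ to 3′ on the gene's strand, from RefSeq for GRCm38.p6, and the most upstream window is given where a gene has several. RefSeq windows were matched by symbol for 7 of the 8 members, Ido1 being the exception. Capitals mark 4 searched motifs on either strand, the TATA box TATAAA, the GC box GGGCGG, the CCAAT box CCAAT and the cyclic AMP response element TGACGTCA. In the Rasgrp2 window a pair of GC boxes overlap by 1 base.
Rasd2, chr8:75213694-75213993, plus strand: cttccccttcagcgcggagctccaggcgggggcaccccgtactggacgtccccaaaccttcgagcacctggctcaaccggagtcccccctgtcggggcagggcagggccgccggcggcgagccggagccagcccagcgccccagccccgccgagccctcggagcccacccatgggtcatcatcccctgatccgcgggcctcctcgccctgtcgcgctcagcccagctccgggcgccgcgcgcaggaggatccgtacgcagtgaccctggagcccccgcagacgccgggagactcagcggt
Pcp4l1, chr1:171196219-171196518, minus strand: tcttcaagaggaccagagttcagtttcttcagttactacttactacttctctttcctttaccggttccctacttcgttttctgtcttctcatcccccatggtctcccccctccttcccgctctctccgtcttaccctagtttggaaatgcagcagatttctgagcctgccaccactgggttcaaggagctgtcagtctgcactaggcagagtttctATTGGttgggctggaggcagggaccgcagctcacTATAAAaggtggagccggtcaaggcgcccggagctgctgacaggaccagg
Ptpn5, chr7:47133635-47133934, minus strand: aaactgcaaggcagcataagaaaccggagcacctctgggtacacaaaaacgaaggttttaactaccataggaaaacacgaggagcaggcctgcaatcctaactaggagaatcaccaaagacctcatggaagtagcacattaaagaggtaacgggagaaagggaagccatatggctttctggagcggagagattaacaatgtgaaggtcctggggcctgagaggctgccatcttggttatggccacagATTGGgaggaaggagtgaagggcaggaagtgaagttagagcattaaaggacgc
Rasgrp2, chr19:6399625-6399924, plus strand: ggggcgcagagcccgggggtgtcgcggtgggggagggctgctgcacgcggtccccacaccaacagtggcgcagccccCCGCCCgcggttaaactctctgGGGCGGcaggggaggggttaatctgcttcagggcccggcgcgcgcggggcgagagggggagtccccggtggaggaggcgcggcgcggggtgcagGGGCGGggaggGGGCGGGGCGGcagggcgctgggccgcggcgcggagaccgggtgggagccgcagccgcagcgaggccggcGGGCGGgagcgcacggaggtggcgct
The 3 promoters of the genes with like levels do not look alike. The Rasd2 window is 74.7% G and C with 33 CpG dinucleotides and none of the 4 motifs, the Pcp4l1 window is 53.3% G and C with 8 CpG, 1 TATAAA and 1 CCAAT (read as its reverse complement), and the Ptpn5 window is 48.7% G and C with 6 CpG and 1 CCAAT, also as its reverse complement. The Rasgrp2 window is 80% G and C with 40 CpG and 6 GC boxes. Over all 32851 mouse windows of this length the median was 52.7% G and C and 7 CpG, and 13.6% held TATAAA, 35.7% GGGCGG, 37.4% CCAAT and 1.79% TGACGTCA. None of the 7 member windows held TGACGTCA. A match or its absence describes these letters only.

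Per kilobase of principal transcript, the 8 genes spanned a wide range of levels in the 23 purified libraries. The order given here depends on that length. For Arpp21 it was 3631 bases, against 17428 in all its annotated exons joined, and for Rasgrp2 2236 against 12384. For Rasd2 it was the mean of transcripts of 1299 and 2810 bases. The order by other lengths was not tested. Arpp21, a phosphoprotein regulated by cyclic AMP and dopamine, was highest with 633 ± 227 CPM per kb (SD, n = 23). Pcp4l1, a relative of the calmodulin regulator Pcp4, followed with 501 ± 168 CPM per kb, and Rasd2, the striatal small GTPase Rhes, with 496 ± 208 CPM per kb. These 3 did not separate cleanly: Arpp21 was above Pcp4l1 in 17 of 23 libraries and Pcp4l1 above Rasd2 in 14 of 23. Ptpn5, the striatum-enriched tyrosine phosphatase STEP, had 278 ± 144 CPM per kb and was below Rasd2 in all 23. Rasgrp2, the calcium- and diacylglycerol-regulated exchange factor CalDAG-GEFI that activates Rap1, had 51.9 ± 20.8 CPM per kb. Actn2, an actin-crosslinking alpha-actinin, had 24.2 ± 11.6 CPM per kb, and Ido1, an enzyme that opens the tryptophan ring in the first step of the kynurenine pathway, had 21.3 ± 10.4 CPM per kb, with Actn2 above Ido1 in 13 of 23 libraries. On the same scale Drd2 had 1382 ± 819 CPM per kb.

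Pcp4, which encodes a small calmodulin-binding protein also called PEP-19, was at the bottom with 2.48 ± 1.66 CPM per kb, and its values are uncertain. It had 0 to 50 reads per purified library, and the library with 0 reads (saline withdrawal set B replicate 3) allows up to 3 counts, a floor that covers counting error only. In GENCODE M21, Pcp4 lies on chromosome 16 at 96467606 to 96525793 on the plus strand, and Igsf5, at 96361794 to 96525580 on the same strand, shares 243 of its 1026 exon bases (23.7%). Igsf5 itself had 0 to 37.4 CPM in purified libraries, with SD above its mean in the nonescalating withdrawal group (5.38 ± 9.76 CPM, n = 9). By RefSeq gene spans no overlapping gene was listed for Pcp4, while Gm51565 overlapped Ido1 and Gm40667 overlapped Actn2. Exon bases were not compared in RefSeq. The sources used here do not name the annotation behind the counts, and the part of the Igsf5 overlap in the low counts of Pcp4 was not tested. In GENCODE M21 the other members share few exon bases with neighbours: Arpp21 shares 580 bases (3.33%) with 2900079G21Rik on the opposite strand, and Rasgrp2 shares 265 bases (2.14%) with Gm14965 on the opposite strand. Arpp21 lies on chromosome 9 (112065091 to 112235938, minus strand), Rasgrp2 on chromosome 19 (6399340 to 6415216, plus) and Ptpn5 on chromosome 7 (47077795 to 47133684, minus), where Ptpn5 shares no exon base. Ido1 (chromosome 8, 24584136 to 24597009, minus), Rasd2 (chromosome 8, 75213944 to 75224113, plus), Pcp4l1 (chromosome 1, 171173262 to 171196268, minus) and Actn2 (chromosome 13, 12269426 to 12340760, minus) share none either.

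**Figure D1:**
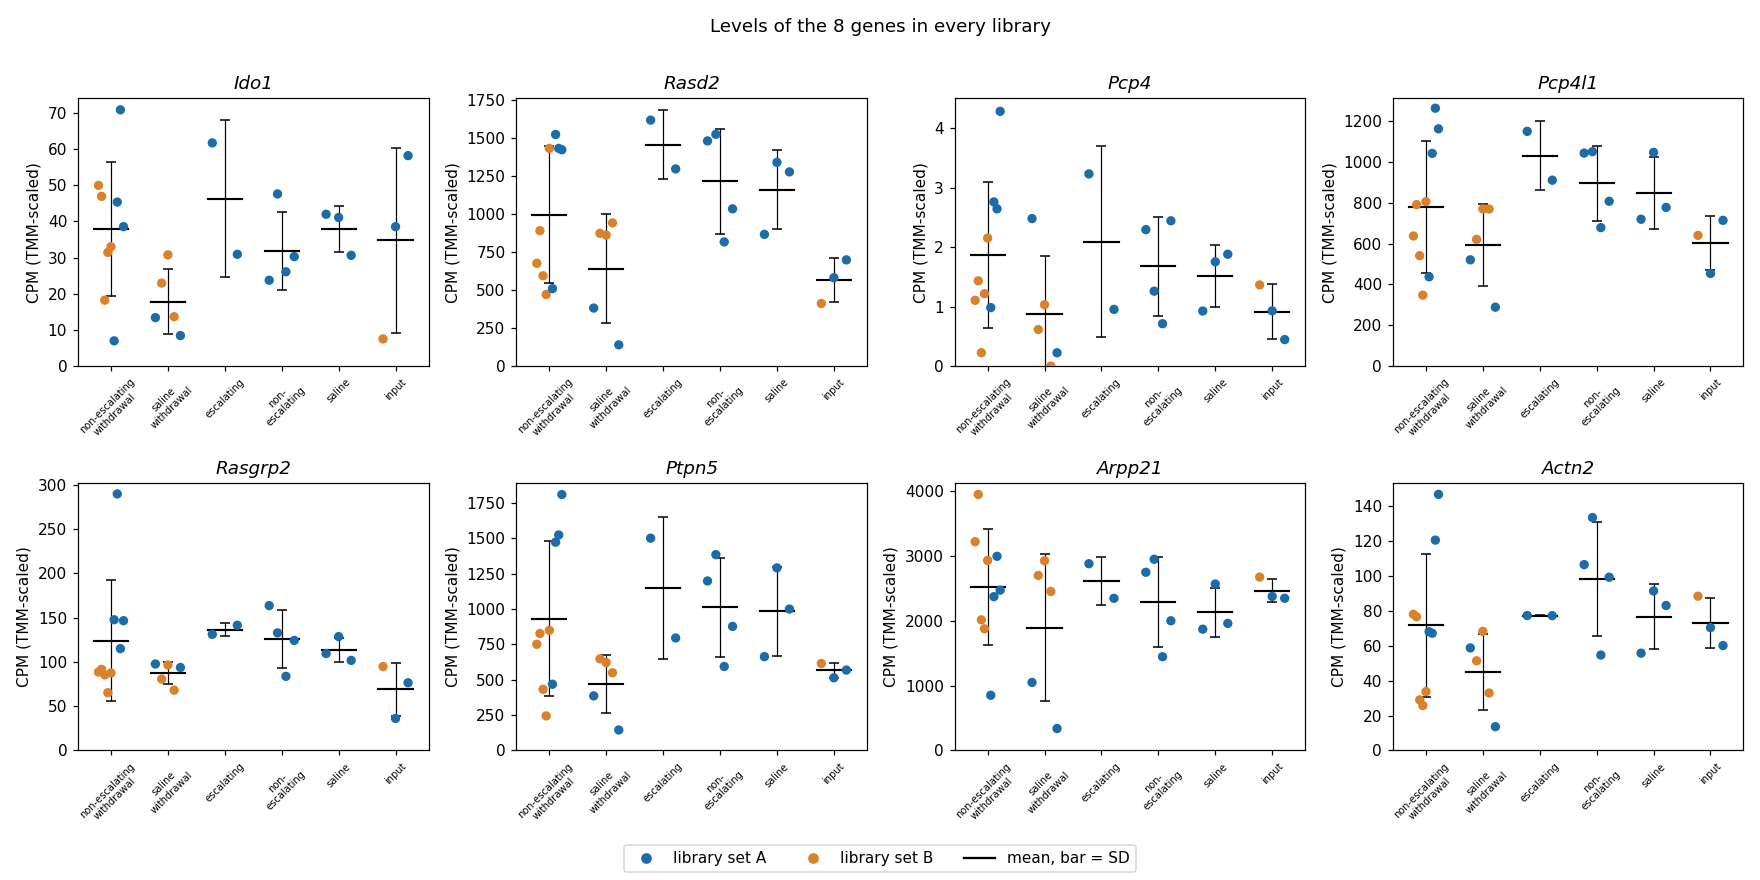
Levels of the 8 genes in CPM on TMM-scaled library sizes, 1 panel a gene on a linear axis from 0, with each point a library coloured by library set and the line and bar the mean and SD of the group. In the saline withdrawal group the 2 set A libraries lie below the 3 set B libraries for Rasd2, Pcp4l1, Ptpn5 and Arpp21.

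The first comparison asks whether RNA of these genes was enriched with the ribosomes of D2 neurons. It used the 12 purified libraries of the conditions with an input against the 3 inputs. Of the 8 genes 1, Rasd2, was called higher in purified libraries, against 3.58% of all 15612 genes tested that were called higher and 7.38% called in either direction. None was called lower, against 3.8% of all genes. The median log2 fold change of the 8 genes was 0.35, against 0.16 over all genes tested, 1.90 over the 11 D2 markers and -2.20 over the 10 D1 markers. Without the saline withdrawal input the median of the 8 genes was 0.73. No member's fold change was as large as that of Drd2 or Drd1.

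Among the small G protein genes, Rasd2 ran from 140 to 1526 CPM over the 12 purified libraries (median 908), against 412, 699 and 582 CPM in the saline withdrawal, nonescalating and saline inputs. It was above all inputs in 10 of the 12 purified libraries and below all of them in the other 2, which are the saline withdrawal libraries of set A. Its log2 fold change was 0.96 ± 0.28 (SE; adjusted p = 0.0485, edgeR's quasi-likelihood test). Rasgrp2 ran from 68.1 to 164 CPM (median 99.7) in purified libraries, against 94.8, 76.5 and 36.2 CPM in the saline withdrawal, nonescalating and saline inputs. It was above all inputs in 8 of 12 libraries and below all inputs in 0, with a log2 fold change of 0.63 ± 0.29 (adjusted p = 0.187).

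The Rasd2 call sits at the threshold. It was lost with limma voom (log2 fold change 0.86, adjusted p = 0.0607), without the library set term (0.80, adjusted p = 0.239), with all 23 purified libraries (0.86, adjusted p = 0.184) and with the replicate block (0.84, adjusted p = 0.274), and was kept with DESeq2 (0.95, adjusted p = 0.00579). It was also lost in edgeR when 1 of 11 libraries was left out: saline withdrawal set B replicate 1 (adjusted p = 0.0725), 2 (0.0724) or 3 (0.0697), the saline withdrawal input (0.164), saline replicate 3 (0.0632) or 4 (0.0811), nonescalating replicate 1 (0.0633), 2 (0.0513) or 4 (0.0651), the saline input (0.137) or the nonescalating input (0.14). The log2 fold change without any 1 library stayed between 0.89 and 1.06. Without either set A saline withdrawal library, which are the low ones, the adjusted p was 0.0154 (replicate 1) and 0.0159 (replicate 2).

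Ptpn5 ran from 145 to 1386 CPM (median 656) over the purified libraries, against 615, 569 and 515 CPM in the saline withdrawal, nonescalating and saline inputs. It was above all inputs in 8 libraries and below all in 2, with a log2 fold change of 0.56 ± 0.32 (adjusted p = 0.275). Pcp4l1 ran from 288 to 1050 CPM (median 770), against 640, 714 and 453 CPM in the same order of inputs. It was also above all inputs in 8 libraries, and its log2 fold change was 0.45 ± 0.23 (adjusted p = 0.223). For both genes the ranges of purified and input libraries overlapped.

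Arpp21, Actn2 and Ido1 had fold changes close to 0. Arpp21 ran from 338 to 2945 CPM (median 2224) in purified libraries, against 2670, 2344 and 2373 CPM in the saline withdrawal, nonescalating and saline inputs, a log2 fold change of -0.06 ± 0.28 (adjusted p = 0.911). Actn2 ran from 13.7 to 133 CPM (median 63.5), against 88.4, 60.1 and 70.4 CPM in those inputs, a log2 fold change of -0.04 ± 0.40 (adjusted p = 0.966). Both were above all inputs in 4 of 12 purified libraries and below all inputs in 6. Ido1 ran from 8.42 to 47.6 CPM (median 28.2), inside the range of the inputs, which had 7.5, 58.2 and 38.5 CPM. Its log2 fold change was -0.0041 ± 0.42 (adjusted p = 0.997), and relative to their mean its 3 inputs differed more than those of any other member. Without the nonescalating input, the highest of them, the log2 fold change of Ido1 was 0.64 (adjusted p = 0.443), and without the saline withdrawal input that of Actn2 was 0.41 (adjusted p = 0.645). Pcp4 was at 0 to 2.48 CPM in purified libraries and 1.36, 0.445 and 0.928 CPM in inputs. Its log2 fold change was 0.26 ± 1.16 (adjusted p = 0.911), so a change in either direction was not detectable at so few reads.

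The ratio to the input differed between conditions, and with 1 input a condition this difference was not tested. In saline mice after withdrawal, purified libraries averaged 0.922 times the input for Rasgrp2, 1.55 times for Rasd2, 0.764 times for Ptpn5, 0.928 times for Pcp4l1, 0.708 times for Arpp21, 0.509 times for Actn2, 0.638 times for Pcp4 and 2.38 times for Ido1 (n = 5 purified). In the nonescalating cocaine group without withdrawal, they averaged 1.65 times the input for Rasgrp2, 1.74 times for Rasd2, 1.78 times for Ptpn5, 1.25 times for Pcp4l1, 0.974 times for Arpp21, 1.64 times for Actn2, 3.77 times for Pcp4 and 0.549 times for Ido1 (n = 4 purified). In saline mice without withdrawal, they averaged 3.13 times the input for Rasgrp2, 2 times for Rasd2, 1.92 times for Ptpn5, 1.87 times for Pcp4l1, 0.897 times for Arpp21, 1.09 times for Actn2, 1.64 times for Pcp4 and 0.983 times for Ido1 (n = 3 purified). The ratio was lowest in saline mice after withdrawal for 7 of the 8 genes, and Ido1 had its highest ratio there. That condition mixes library sets: its input is of set B, and its purified libraries are of both sets. The other conditions are of set A only. For Rasd2 the set B saline withdrawal libraries had 874, 863 and 943 CPM, against 412 CPM in that input. The set A libraries had 140 and 382 CPM. Condition and library set cannot be told apart in these ratios. Drd2 was 4.89 times the input in saline mice after withdrawal, 7.39 times in the nonescalating group and 7.39 times in saline mice without withdrawal.

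**Figure D2:**
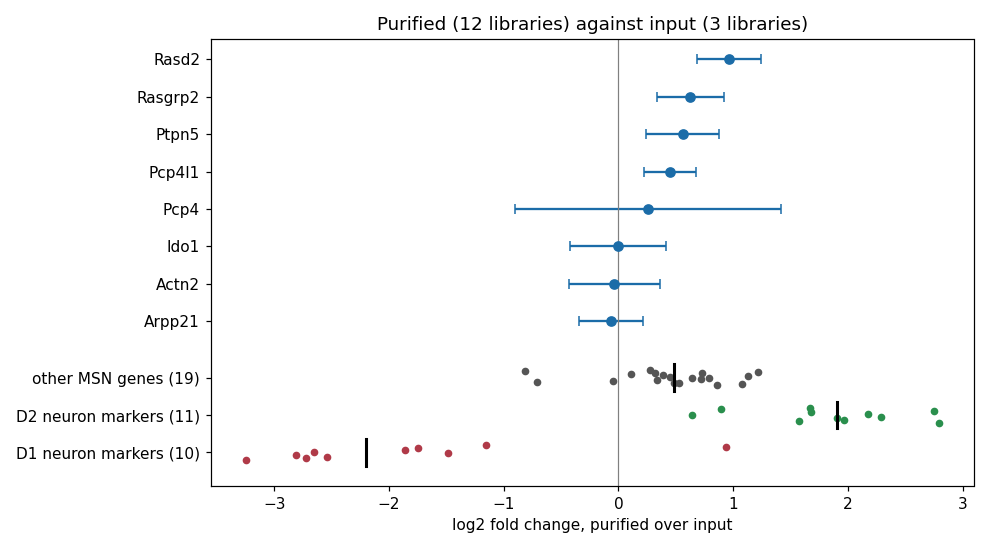
Log2 fold change of purified over input libraries (12 against 3) from edgeR for the 8 genes, with bars showing SE, and below them 1 point a gene for 19 other medium spiny neuron genes, 11 D2 markers and 10 D1 markers, with a bar at the median. The 8 genes lie between -0.06 and 0.96, between the medians of the D1 markers (-2.20) and the D2 markers (1.90).

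Within a library, the ratio of each gene to Drd2 or Drd1 depends on library scaling only through the prior count of 2 in log2 CPM. That prior weighs most on Pcp4, which had the fewest reads. On the log2 scale the ratio to Drd2 was lower in purified than in input libraries for all 8 genes, with differences from -1.82 (Rasgrp2) to -2.93 (Arpp21), and the ratio to Drd1 was higher, by 2.97 (Arpp21) to 4.08 (Rasgrp2). These differences hold the receptors' own changes given above, so they are a description and no test is given.

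The related gene lists give the setting for these values. Of 19 other medium spiny neuron genes, 1 was called higher in purified libraries, the kinase gene Dclk3 (log2 fold change 1.13 ± 0.29, adjusted p = 0.0275), and their median was 0.49. Next by p were Foxp1 (0.79 ± 0.24, adjusted p = 0.0532), Strip2 (-0.81 ± 0.25, adjusted p = 0.057) and Hpca (1.22 ± 0.37, adjusted p = 0.0581, edgeR). Of the known markers in that list, Ppp1r1b had 0.86 ± 0.34 (adjusted p = 0.128). Rgs9, a striatal regulator of G protein signalling, had -0.71 ± 0.24 (adjusted p = 0.0822). Of 15 paralogs or relatives of the members, 14 could be tested and 2 were called, both higher: Nrgn, which encodes the calmodulin-binding neurogranin (1.42 ± 0.31, adjusted p = 0.0132), and R3hdm2 (0.73 ± 0.20, adjusted p = 0.0358), a relative of Arpp21. Of 14 genes of calmodulin and its partners only Nrgn, which is in both lists, was called. None of 7 genes for STEP substrates was called, and the lowest adjusted p was 0.0875, for the NMDA receptor subunit gene Grin2b (0.64 ± 0.22). None of 10 genes of the Ras and Rap cycle was called, the lowest adjusted p being 0.11 for Rapgef4 (-0.76 ± 0.29). Of the 11 other genes of the kynurenine pathway just 2, Ido2 and Afmid, had enough reads to be tested, and neither was called (adjusted p = 0.568 and 0.155). Ido1 is known as a gene induced by interferon. Of 18 interferon-response genes 2, Irf1 and Psmb8, were called higher in purified libraries (adjusted p = 0.0251 and 0.0274, edgeR), against 3.58% of all genes. All 18 had positive log2 fold changes, with a median of 2.90. Ido1 was not called, and its log2 fold change ran from -0.49 to 0.64 when 1 library was left out.

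The study's main question concerns cocaine and withdrawal. Across the 23 purified libraries, edgeR's quasi-likelihood test called none of the 8 genes, and no gene at all of 16910 (0% called), in 6 comparisons of groups and in the interaction of treatment with withdrawal. Unadjusted p-values under 0.05 were found for 345 to 885 genes per comparison, and among the 8 for Ido1 alone, in 3 comparisons. DESeq2 called 1 to 12 genes per comparison and limma voom 0, and neither called a member. Without withdrawal the differences of the 8 genes were small: the median log2 fold change was 0.28 for escalating against saline (range 0.01 to 0.46), 0.09 for nonescalating against saline (-0.25 to 0.36) and 0.20 for escalating against nonescalating (-0.35 to 0.54), with adjusted p = 1 throughout. For escalating against saline the log2 fold changes were 0.33 ± 0.61 for Rasd2, 0.27 ± 0.36 for Rasgrp2, 0.22 ± 0.65 for Ptpn5, 0.28 ± 0.47 for Pcp4l1, 0.46 ± 1.16 for Pcp4, 0.29 ± 0.54 for Arpp21, 0.01 ± 0.61 for Actn2 and 0.29 ± 0.62 for Ido1 (SE). For nonescalating against saline they were 0.06 ± 0.51 for Rasd2, 0.15 ± 0.30 for Rasgrp2, 0.04 ± 0.55 for Ptpn5, 0.08 ± 0.39 for Pcp4l1, 0.15 ± 0.99 for Pcp4, 0.10 ± 0.46 for Arpp21, 0.36 ± 0.51 for Actn2 and -0.25 ± 0.52 for Ido1. For escalating against nonescalating they were 0.26 ± 0.58 for Rasd2, 0.11 ± 0.34 for Rasgrp2, 0.18 ± 0.62 for Ptpn5, 0.20 ± 0.44 for Pcp4l1, 0.31 ± 1.10 for Pcp4, 0.19 ± 0.51 for Arpp21, -0.35 ± 0.58 for Actn2 and 0.54 ± 0.59 for Ido1. No difference among these 24 was larger than its SE. Both comparisons with saline share the saline libraries, and both with the escalating group share its 2 libraries.

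After withdrawal, nonescalating cocaine mice had higher fitted levels than saline mice for all 8 genes, but none passed the test. The largest difference was in Ido1. Ido1 had a lowest, median and highest level of 6.97, 38.5 and 70.8 CPM over the 9 nonescalating withdrawal libraries, against 13.4 and 8.42 CPM (set A) and 22.9, 30.7 and 13.6 CPM (set B) in the 5 saline withdrawal libraries. Of the 9 nonescalating withdrawal libraries 7 were above all saline withdrawal libraries, but the groups overlapped, and the lowest of all was nonescalating withdrawal set A replicate 1. The log2 fold change was 1.15 ± 0.42 (unadjusted p = 0.0113, adjusted p = 0.749, edgeR's quasi-likelihood test over all genes).

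For Ptpn5 the nonescalating withdrawal libraries had 245, 828 and 1811 CPM as lowest, median and highest, and the saline withdrawal libraries had 145 and 386 CPM (set A) and 648, 622 and 550 CPM (set B), a log2 fold change of 0.84 ± 0.44. Rasd2 had 471, 892 and 1525 CPM in nonescalating withdrawal libraries and 140 and 382 CPM (set A) and 874, 863 and 943 CPM (set B) in saline withdrawal libraries, a log2 fold change of 0.69 ± 0.41. In both genes it is the 2 set A saline withdrawal libraries that are low. The log2 fold changes of the others were 1.07 ± 0.78 for Pcp4, 0.65 ± 0.35 for Arpp21, 0.52 ± 0.39 for Actn2, 0.36 ± 0.23 for Rasgrp2 and 0.35 ± 0.30 for Pcp4l1. Adjusted p-values of the 8 genes ran from 0.749 to 0.764 (edgeR). The median of 0.67 stood beside 0.01 over all genes, 0.63 over the 19 other medium spiny neuron genes, 0.58 over the 11 D2 markers, -1.02 over the 13 endothelial genes and -1.27 over the 18 interferon-response genes, and no gene of any of these lists was called.

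The fitted difference was larger in set A than in set B for 7 of the 8 genes. Within set A (4 nonescalating withdrawal libraries against 2 saline withdrawal libraries) the log2 fold changes were 2.31 ± 0.58 for Ptpn5, 2.23 ± 0.51 for Rasd2, 1.90 ± 0.64 for Ido1, 1.64 ± 0.49 for Arpp21, 1.48 ± 0.57 for Actn2, 1.27 ± 0.40 for Pcp4l1, 1.03 ± 1.22 for Pcp4 and 0.86 ± 0.33 for Rasgrp2, with a lowest adjusted p of 0.0587 (edgeR) and 0.00591% of all genes called. Within set B (5 against 3) they were 0.04 ± 0.44 for Ptpn5, -0.13 ± 0.38 for Rasd2, 0.68 ± 0.50 for Ido1, 0.06 ± 0.38 for Arpp21, -0.06 ± 0.45 for Actn2, -0.20 ± 0.32 for Pcp4l1, 1.11 ± 1.06 for Pcp4 and 0.04 ± 0.27 for Rasgrp2, all with adjusted p = 1. Ido1 was the 1 gene whose difference exceeded its SE in both sets. The difference between the sets, tested for each gene, was largest for Rasd2 (2.36 ± 0.62, unadjusted p = 0.000928, adjusted p = 0.19) and was called for none of the 8. Without saline withdrawal set A replicate 2, the between-set difference of Rasd2 was 3.26 and was called (adjusted p = 0.0438), where 1.26% of all genes were called, against 0% with all libraries. Without set A replicate 1 it was 1.80 (adjusted p = 0.966), with 0.012% of all genes called. Without replicate 2, the set A differences of Rasd2 (3.13), Ptpn5 (3.18), Arpp21 (2.68) and Actn2 (2.88) were also called, with adjusted p from 0.027 to 0.0372 (edgeR), but the same fit called 833 of 16856 genes (4.94%), against 1 of 16910 with all libraries. Without replicate 1 no member was called in set A, and 0.0239% of all genes were. Each of these fits rests on 1 remaining set A saline withdrawal library, which is taken to vary like the other groups. The 2 set A saline withdrawal libraries had 70.7% (replicate 1) and 52.7% (replicate 2) of reads outside genes. Replicate 2 was put in set A by its number alone. It lists 32531 genes, as the set B libraries do and no other set A library does. The summed level of the 13 endothelial genes ran from 134 to 7552 CPM in nonescalating withdrawal libraries and from 1757 to 11512 CPM in saline withdrawal libraries, and that of the 18 interferon-response genes from 65.3 to 852 CPM and from 244 to 2681 CPM in the same groups. The part of these differences in the members' values was not tested.

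**Figure D3:**
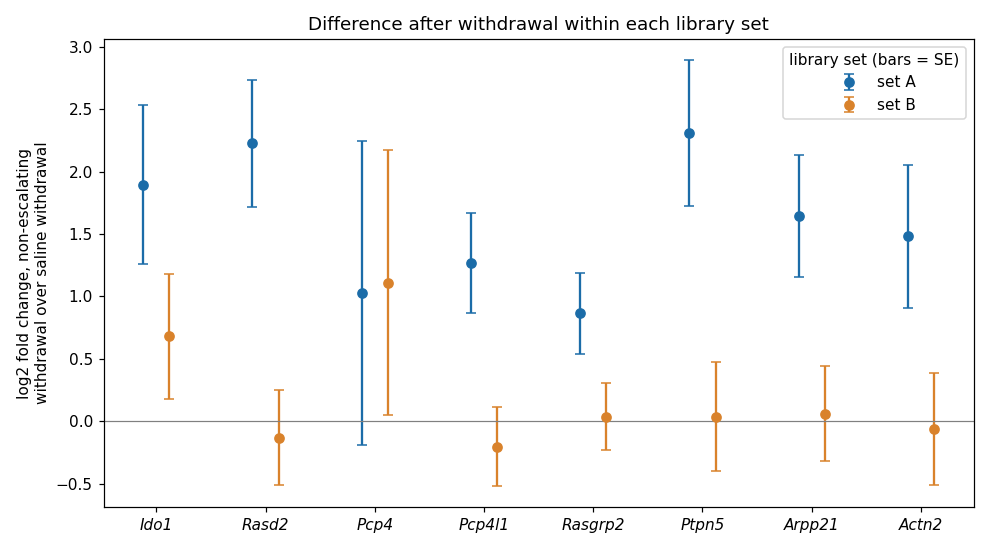
Log2 fold change of nonescalating withdrawal over saline withdrawal within library set A (4 against 2 libraries) and set B (5 against 3), with bars showing SE. Set A values run from 0.86 to 2.31, and set B values run from -0.20 to 1.11, with 6 of the 8 between -0.20 and 0.06.

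Withdrawal against none was the next comparison. In saline mice, withdrawal libraries had lower fitted levels than libraries without withdrawal for 7 of the 8 genes, with a median log2 fold change of -0.58 against 0.08 over all genes, and none was called. Ido1 averaged 17.8 ± 8.92 CPM in saline withdrawal libraries (n = 5) and 37.9 ± 6.31 CPM in saline libraries (SD, n = 3), a log2 fold change of -1.26 ± 0.58 (unadjusted p = 0.0394, adjusted p = 0.782, edgeR). The saline libraries had 42.0, 41.1 and 30.6 CPM of Ido1, and the highest saline withdrawal library, at 30.7 CPM, overlapped with the lowest of them. The log2 fold changes were -0.97 ± 0.59 for Rasd2, -0.88 ± 0.50 for Arpp21, -0.76 ± 0.63 for Ptpn5, -0.39 ± 0.43 for Pcp4l1, -0.38 ± 0.56 for Actn2, -0.25 ± 1.03 for Pcp4 and 0.11 ± 0.32 for Rasgrp2. Within set A, which holds all the libraries without withdrawal, the median was -1.35 and Rasd2 had -2.15 ± 0.54 (adjusted p = 0.3). Set B holds no libraries without withdrawal. The 19 other medium spiny neuron genes had a median of -0.62, with 19 of 19 negative and none called. A pair of other lists ran the opposite way: the 13 endothelial genes were positive in 13 of 13 (median 1.53) and the 18 interferon-response genes in 18 of 18 (median 1.16), with none called. The summed endothelial level ran from 1757 to 11512 CPM in saline withdrawal libraries and from 368 to 4687 CPM in saline libraries, and the summed interferon-response level from 244 to 2681 CPM in saline withdrawal libraries and from 74.5 to 1380 CPM in saline libraries. Their part in the members' values was not tested.

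In nonescalating cocaine mice, withdrawal against none gave a median of -0.04 over the 8 genes (range -0.35 to 0.68), and none was called. The log2 fold changes were -0.35 ± 0.44 for Rasd2, 0.32 ± 0.26 for Rasgrp2, 0.03 ± 0.47 for Ptpn5, -0.12 ± 0.34 for Pcp4l1, 0.68 ± 0.88 for Pcp4, -0.34 ± 0.39 for Arpp21, -0.22 ± 0.43 for Actn2 and 0.14 ± 0.46 for Ido1 (SE; adjusted p from 0.926 to 0.994, edgeR). The interaction, which asks whether nonescalating cocaine differed from saline by more after withdrawal than without it, was positive for all 8 genes with a median of 0.59 and no call (adjusted p = 1). It was largest for Ido1 (1.39 ± 0.66, unadjusted p = 0.0466), and was 0.93 ± 1.24 for Pcp4, 0.79 ± 0.70 for Ptpn5, 0.63 ± 0.65 for Rasd2, 0.55 ± 0.57 for Arpp21, 0.27 ± 0.49 for Pcp4l1, 0.21 ± 0.37 for Rasgrp2 and 0.16 ± 0.64 for Actn2. This contrast uses the same saline withdrawal libraries as the comparisons above.

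The levels of the 8 genes moved with the share of reads outside genes. The same relation was not computed for other genes, so it cannot be called particular to these 8. Saline withdrawal set A replicate 1, with 70.7% of reads outside genes, the highest share, had the lowest level of all 23 purified libraries for 5 of the 8 genes: Rasd2, Pcp4l1, Ptpn5, Arpp21 and Actn2. Across the 23 purified libraries, Pearson's r of log2 CPM with that share was -0.91 for Pcp4l1, -0.89 for Ptpn5, -0.89 for Rasd2, -0.82 for Arpp21, -0.75 for Actn2, -0.73 for Ido1, -0.54 for Pcp4 and -0.43 for Rasgrp2. Spearman's rho ran from -0.87 (Pcp4l1) to -0.47 (Rasgrp2). Adjusted over the 8 relations, the permutation p ran from 2e-05 to 0.0395 for r (the smallest that 100000 permutations can give before adjustment is 1e-05) and from 2.67e-05 to 0.0264 for rho. The median share of reads outside genes was 32.3% in nonescalating withdrawal libraries, 46.4% in saline withdrawal libraries, 33.4% in escalating, 30.6% in nonescalating and 42.6% in saline libraries.

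Within sets the relation held for most genes in set A, and in set B it depended on the measure. Within set A (15 libraries), r ran from -0.96 (Pcp4l1) to -0.47 (Rasgrp2), and the adjusted permutation p was under 0.05 for all but Rasgrp2 (0.0834). By rho within set A it was under 0.05 for all but Pcp4 (0.0944). Within set B (8 libraries), r was -0.88 for Ptpn5, -0.86 for Arpp21, -0.83 for Pcp4l1 and -0.79 for Rasd2, with adjusted p from 0.0158 to 0.035 in an exact permutation test. Within set B the adjusted exact p was 0.0605 for Rasgrp2 (r = -0.74), 0.0867 for Actn2 (-0.69), 0.331 for Pcp4 (-0.43) and 0.34 for Ido1 (-0.38). By rho no gene passed within set B: the adjusted exact p was 0.0558 for Ptpn5, Arpp21, Pcp4l1 and Rasgrp2, 0.0733 for Actn2, 0.176 for Rasd2 and 0.327 for Ido1 and Pcp4. With the 2 libraries left out whose share lay farthest from the median, r was -0.86 for Pcp4l1, -0.85 for Ptpn5, -0.83 for Rasd2, -0.72 for Actn2, -0.68 for Arpp21, -0.61 for Rasgrp2, -0.53 for Ido1 and -0.45 for Pcp4, with adjusted p from 2.67e-05 to 0.0417 by permutation. Whether this share sets the levels was not tested.

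**Figure D4:**
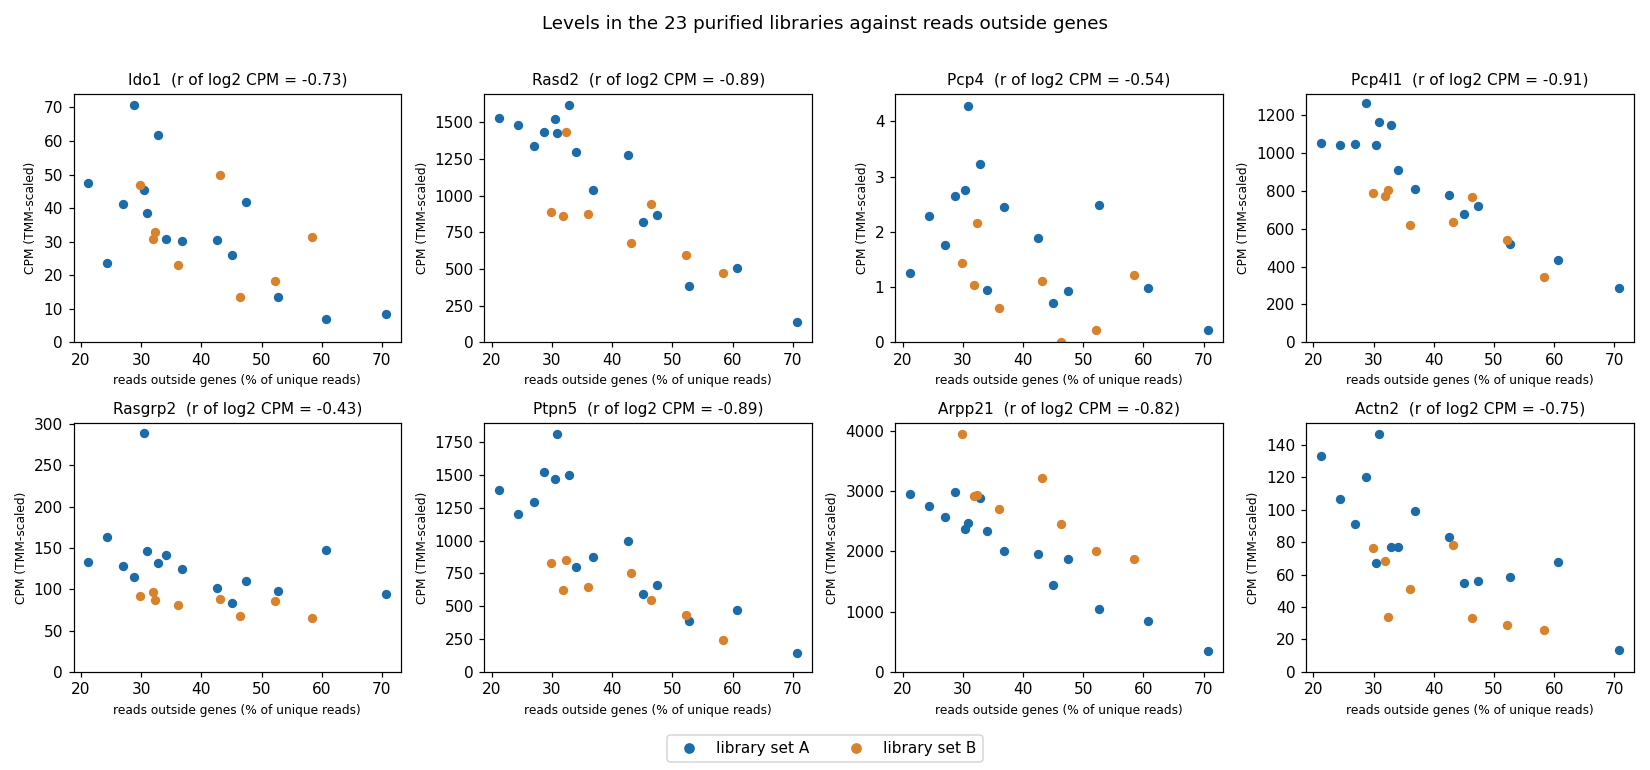
CPM of each gene against reads outside genes, in percent of uniquely aligned reads, in the 23 purified libraries, 1 point a library coloured by set. The 5 genes Pcp4l1, Rasd2, Ptpn5, Arpp21 and Actn2 have their lowest value at the highest share (70.7%). Rasgrp2, with 1 library at 290 CPM, has the weakest relation to the share (r of log2 CPM -0.43).

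Among themselves, the genes varied together to unequal degrees. Over 28 pairs of genes in the 23 purified libraries, the median r of log2 CPM was 0.66, and 5 pairs were above 0.8. The closest pairs were Pcp4l1 with Ptpn5 (r = 0.96), Rasd2 with Ptpn5 (0.93) and Rasd2 with Pcp4l1 (0.93), the 3 whose promoters are printed first. Within set B these 3 values were 0.90, 0.79 and 0.86, but other pairs did not keep theirs: Ido1 with Pcp4l1 had 0.71 over all libraries and 0.04 within set B, Ido1 with Rasd2 had 0.70 and -0.0075, and Rasd2 with Actn2 had 0.72 and 0.20. Arpp21 with Actn2 had 0.56 over all libraries and 0.30 once the 2 libraries with the most extreme Arpp21 levels were left out. Pairs with Rasgrp2 ran from 0.07 (with Arpp21) to 0.59 (with Ptpn5). These points share library depth and composition, so the values are a description. By the same measure over 10364 genes averaging 5 CPM or more, the genes most like 7 of the members were Bcr for Pcp4l1 (r = 0.97), Atp2b1 for Arpp21 (0.97), Rbfox3 for Rasd2 (0.96), Atp5d for Actn2 (0.95), Sin3b for Rasgrp2 (0.90), Mapre3 for Ido1 (0.86) and Map2k2 for Pcp4 (0.83). Among the 3 genes most like Pcp4l1 was Gng7 (r = 0.96), which encodes a striatal G protein gamma subunit and is 1 of the 19 other medium spiny neuron genes.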

How the data were processed

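The authors deposited raw read counts per gene symbol, 1 table per library. The tools named are STAR 2.0.0e and HTSeq and the build is mm10, per the submitters' processing notes. The annotation and strand setting were not given in the sources used here. Of the tables, 10 list 32531 genes and 16 list 32657. Joining them by shared symbols (31735) and by old and current names of a gene (244) left 31979 genes, with 99.5% to 99.9% of each library's gene counts. Entries that name no gene were used for shares of reads only. None of the 56 pairs of libraries of the same group was identical.

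Tests used edgeR 4.0.16 under R 4.3.3 (TMM, filterByExpr, quasi-likelihood F test, Benjamini-Hochberg over all genes tested, threshold 0.05). The 23 purified libraries were fitted jointly with group and library set (17 residual degrees of freedom). The 12 purified libraries of conditions with an input and the 3 inputs were fitted with fraction, condition and set (10 residual degrees of freedom). DESeq2 1.42.0, limma 3.58.1 voom, RLE factors, no low-count filter, no set term, a replicate block, reads outside genes as a covariate, single sets and leaving out each library were the alternatives. Log2 CPM used a prior count of 2. The fits were tested on simulated data. Levels per length use the mean length of principal transcripts of GENCODE M21 (GRCm38), used for no counting. The saline withdrawal library of set A without a copy mark was put in set A by its number.

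By the rule for named genes, all 8 members are given in every comparison, and for members the genes most like them. Other lists are given by counts, medians and up to 4 genes of lowest p. Ppp1r1b, Rgs9 and the defining endothelial genes are named as known markers. The members and lists were chosen with earlier results of these data known, and the ratios to the receptors and the test between sets were chosen after seeing the data. Intervals and floors cover counting error only. The gene most like Ptpn5 in level is not reported here.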

Additional observations from a re-analysis of the deposited data

Results flagged for a closer look

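The 8 genes in the 3 groups of 4 to 10 purified libraries make 24 sets of levels, of which 1 held a library far from the others. Rasgrp2 had 289.7 CPM in nonescalating withdrawal set A replicate 2, and the nearest of the other 8 libraries of that group had 147.6 CPM. The gap was 0.633 of the group's whole range, above Dixon's critical value of 0.493 for 9 libraries. Chance flags about 1 in 20 such groups. Without that library the log2 fold change of Rasgrp2 for saline withdrawal against saline was -0.059, against 0.11 with it, and neither was called. That comparison does not hold the flagged library's group and shares only the joint fit with it. With any 1 library left out, Rasgrp2 ran from 0.22 to 0.49 for nonescalating withdrawal against saline withdrawal. For nonescalating withdrawal against nonescalating it ran from 0.0044 to 0.47.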

How the results depend on the processing

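Of the 8 counts of members called, the 7 for comparisons of groups were 0 under every alternative named in the methods. The count for purified against input, 1 (Rasd2), was 0 with limma voom, without the library set term, with all 23 purified libraries and with the replicate block, and it ran from 0 to 1 when 1 library was left out.

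Among the log2 fold changes given above per gene, those that turned were of genes not called. The values below are not all of them. Nonescalating against saline turned in 5 alternative fits, leave-one-out fits included, for Rasd2 and for Ptpn5. It turned in 4 each for Arpp21, Pcp4 and Pcp4l1. Nonescalating withdrawal against nonescalating turned in 8 fits for Ptpn5. Escalating against saline turned in 4 fits for Actn2, and the interaction turned in 2 for Actn2. In nonescalating withdrawal against saline withdrawal, set B alone gave -0.15 for Rasd2, -0.22 for Pcp4l1 and -0.074 for Actn2. In saline withdrawal against saline, Pcp4 gave 0.014 with voom and 0.079 with reads outside genes as a covariate, and Rasgrp2 gave -0.024 with voom, -0.37 without the set term, -0.24 with the replicate block and -0.24 in set A alone. In purified against input, Ido1 gave 0.0074 without the low-count filter, 0.025 with the replicate block and 0.016 with all 23 purified libraries, and Actn2 gave 0.23 with voom. With 1 library left out, purified against input ran from -0.49 to 0.64 for Ido1, -0.37 to 0.41 for Actn2 and -0.38 to 1.25 for Pcp4, and saline withdrawal against saline ran from -0.58 to 0.13 for Actn2, -1.09 to 0.21 for Pcp4 and -0.059 to 0.27 for Rasgrp2. The cause was not tested.

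Replicate numbers did not pair the libraries: 25 pairs of libraries with the same number in different groups had a median residual correlation of -0.27 (9 above 0.1), against -0.09 for 78 other pairs, and 6 of 23 libraries correlated best with their own number. With the block, 46 genes were called for purified against input, against 1152 without it. Pcp4 had the fewest reads of the 8 genes, and at 0 to 50 reads per purified library a change in it was not detectable.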
